A study of Mus musculus with 3 samples.

Results

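Immediate early genes and inducible heat shock genes were examined as a group of 10 genes chosen by name, because their transcripts can appear within minutes of handling or stress. They were 7 immediate early genes (Fos, Fosb, Jun, Junb, Egr1, Klf6 and Ier2) and 3 heat shock genes (Hspa1a, Hspa1b and Hspb1), out of 18193 genes that the array annotation names by a single symbol. All 18 probe sets whose only gene symbol was one of these were used. The samples were pools of whole mouse embryos collected 8.5 days post coitum (dpc), each hybridised to its own Affymetrix array, 3 in all. The mutant group was 2 biological replicates, mutant 1 from 8 and mutant 2 from 6 pooled litter mates of mixed sex, with the genotype Dnmt3l-/+ on a C57Bl/6J background. These embryos had Dnmt3l-/- mothers and wildtype fathers, so each embryo carried a functional paternal copy of Dnmt3l, and the labels call them deficient in maternal methylation. A single array, from 6 C57Bl/6J litter mates of mixed sex, represented normal embryos. The comparison asks how transcript levels differ between embryos labelled deficient in maternal methylation and normal embryos. Methylation itself was not measured on these arrays.

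Immediate early genes are transcribed without new protein synthesis when growth factors, serum or stress activate kinases that act on transcription factors already bound at their promoters. Fos and Jun proteins pair to form the AP-1 transcription factor, while Egr1 and Klf6 are zinc finger transcription factors. Heat shock genes are switched on when unfolded proteins release heat shock factor 1, which binds repeats of GAA and its complement TTC in their promoters. Hspa1a and Hspa1b are neighbouring copies that encode inducible HSP70 chaperones, and Hspb1 encodes a small chaperone that also acts on actin. Dissection and dissociation of tissue are known to raise both kinds of transcript, and Junb and Klf6 are also known for roles in the extraembryonic tissues of the mouse embryo.

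The promoters of the 3 heat shock members are shown to print their heat shock pairs. That of Junb, an immediate early member with no such match, is set beside them. Its difference in signal was like those of Hspa1a and Hspa1b, but not that of Hspb1. Junb was picked by its signal, so no link between motif and signal can be drawn. The set of RefSeq promoters used here (build GRCm38.p6) held 8 of the 10 members. It lacked Egr1 and Ier2, so no promoter is shown for them. Each line is the 250 bases before the annotated start, 5′ to 3′ on the gene's strand, and capitals mark the heat shock pair GAANNTTC. The windows are chr17:34972157-34972406 (minus strand) for Hspa1a, chr17:34959239-34959488 (minus strand) for Hspa1b, chr5:135887669-135887918 (plus strand) for Hspb1 and chr8:84978749-84978998 (minus strand) for Junb.
Hspa1a: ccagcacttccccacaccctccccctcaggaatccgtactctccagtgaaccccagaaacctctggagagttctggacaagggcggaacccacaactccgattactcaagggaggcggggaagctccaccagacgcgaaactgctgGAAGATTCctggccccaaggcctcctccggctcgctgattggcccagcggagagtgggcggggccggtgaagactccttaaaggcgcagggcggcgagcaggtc
Hspa1b: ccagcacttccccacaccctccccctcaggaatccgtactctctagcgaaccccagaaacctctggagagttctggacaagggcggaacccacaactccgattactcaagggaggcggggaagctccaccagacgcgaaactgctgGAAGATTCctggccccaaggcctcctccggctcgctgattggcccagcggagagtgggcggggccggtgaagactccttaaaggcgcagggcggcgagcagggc
Hspb1: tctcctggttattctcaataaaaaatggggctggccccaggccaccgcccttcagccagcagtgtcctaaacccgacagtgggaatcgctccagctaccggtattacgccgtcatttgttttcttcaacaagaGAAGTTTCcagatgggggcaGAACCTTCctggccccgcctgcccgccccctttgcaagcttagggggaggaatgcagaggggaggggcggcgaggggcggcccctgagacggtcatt
Junb: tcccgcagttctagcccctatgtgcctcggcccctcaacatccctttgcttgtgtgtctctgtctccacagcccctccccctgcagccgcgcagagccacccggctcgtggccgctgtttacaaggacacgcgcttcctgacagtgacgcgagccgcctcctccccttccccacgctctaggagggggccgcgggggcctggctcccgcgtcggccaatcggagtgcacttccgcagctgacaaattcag
The Hspa1a and Hspa1b windows were identical at 247 of 250 positions (98.8%), and 0 annotated genes lay between these neighbours on chromosome 17. Both held GAAGATTC from 104 bases before the start. Hspb1 held the pair 2 times, as GAAGTTTC from 117 and GAACCTTC from 97 bases before the start. Among the immediate early members Jun held it once, as GAATCTTC from 128 bases before the start, and the windows of Fos, Fosb, Junb and Klf6 held no match. Over all 32851 promoter windows of this length 6.69% held GAANNTTC, which reads the same on both strands. The other pair order TTCNNGAA, the AP-1 motif TGACTCA, the cyclic AMP response element TGACGTCA and the CArG box had no match in the 8 windows, on either strand, and were present in 7.17%, 4.46%, 1.55% and 1.47% of all windows. Only full matches within these 250 bases were searched, so near matches and sites further upstream were not counted. A match is a description of letters, and binding was not measured.

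Of the 10 genes, 8 read higher in both mutant arrays than in the normal array, 1 (Ier2) read lower in both and 1 (Fosb) differed in sign. Over all 18193 genes 36.0% read higher in both and 37.4% lower in both, each gene being represented by its brightest probe set. Hspa1a, Hspa1b and Junb were at least 2-fold higher in both mutant arrays, against 3.11% of all genes, and 0 members were at least 2-fold lower in both, against 0.819%. Log2 ratios throughout compare log2(signal + 31.92) in a mutant array, or the mean of both, with the normal array, which understates the change of dim genes. Across the 10 genes the log2 ratios had a median of 0.78 (mutant 1 gave 0.53, mutant 2 gave 0.91), beside -0.01 over all genes. The members were chosen with earlier results of these data known, so they are not an independent gene set. Whole pools were measured, so a change in the number of cells of a type and a change in RNA per cell cannot be told apart. In the same arrays 9 yolk sac endoderm markers had a median log2 ratio of 3.23 and 9 markers of the embryo proper one of -1.10, and their part in the members' values was not tested. No member passed the test across all probe sets. A filter on dim probe sets kept 16 of the 18 probe sets, of 8 genes, and removed those of Fosb and Hspa1a. Limma called 0 of these 16 at an adjusted p under 0.05, against 0.577% of all kept probe sets, with adjusted p from 0.113 to 0.876. At an unadjusted p under 0.05 limma gave 6 of the 16, 5 higher and 1 lower, where 6.7% of all kept probe sets were higher and 6.86% lower by that measure. The 5 higher included the 3 probe sets of Hspa1b, so they are not 5 separate genes. One of the 5, Junb, and the dimmest Klf6 probe set had normal signals below the filter level of 90.4 and were kept only through their mutant signals, so these counts over kept probe sets are a description and support nothing.

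**Figure D1:**
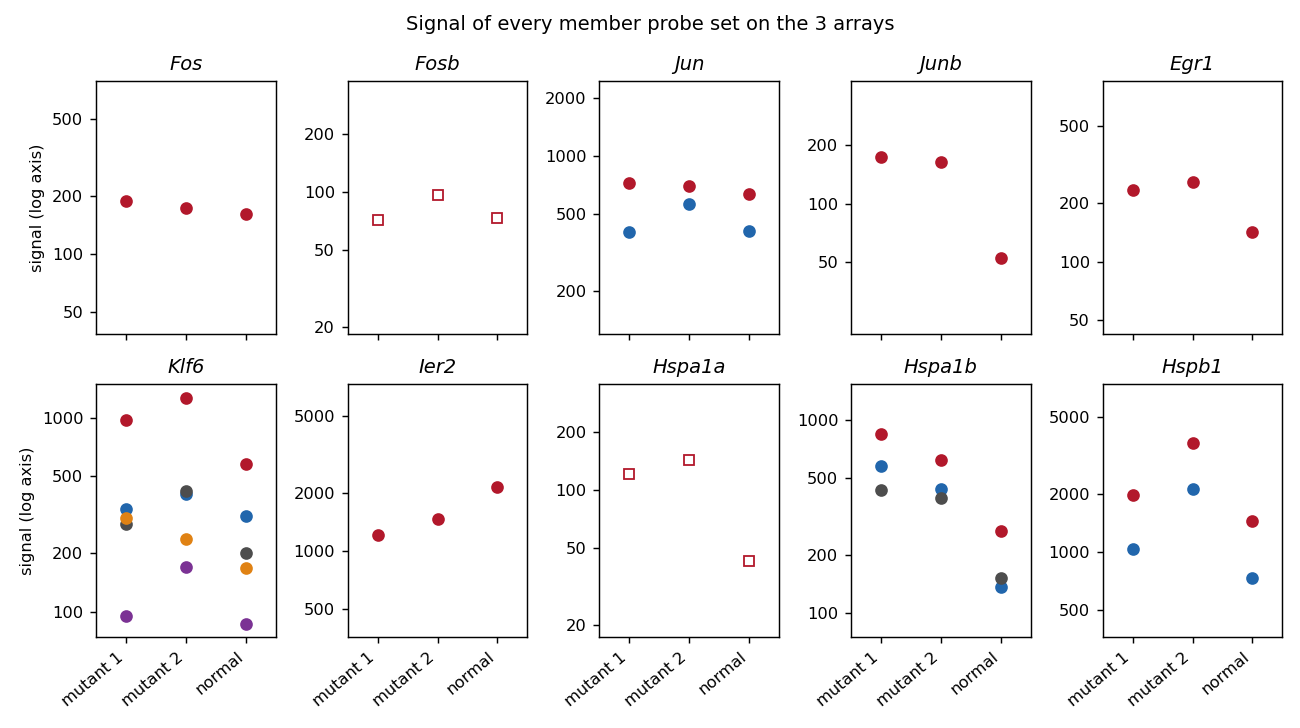
Signal (log axis, array intensity units) of all 18 probe sets on mutant array 1, mutant array 2 and the normal array, with 1 panel for each gene, the same fold range on each vertical axis and a colour for each probe set of a gene. Open squares are probe sets removed by the filter on dim signal. Hspa1a, Hspa1b and Junb have both mutant points well above the normal point, Ier2 has both below it, and Fos and the brighter Jun probe set lie nearly level, while the dimmer Jun probe set is higher in mutant 2.

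The inducible HSP70 genes read higher in both mutant pools at every probe set. The brightest Hspa1b probe set (1452318_a_at) had signals of 848 and 622 on mutant arrays 1 and 2, against 267 on the normal array. The probe set 1427126_at read 433 and 394 on the mutant arrays, against 152 on the normal array. The third, 1427127_x_at, read 580 and 441 on the mutant arrays, against 136 on the normal array. Both mutant arrays were above the normal array in all 3, with mutant 1 above mutant 2 each time. The mutant mean of the brightest probe set was 735 ± 160.0 (SD, n = 2), which was 2.76 times the normal signal. Its log2 ratio was 1.35 (SE 0.30, limma adjusted p = 0.165), and those of the other 2 probe sets were 1.28 (SE 0.28, limma adjusted p = 0.165) and 1.68 (SE 0.30, limma adjusted p = 0.113).

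Hspa1a was measured by 1 probe set, which read 121 and 143 on the mutant arrays, against 42.8 on the normal array. The mutant signals did not overlap the normal one, and their mean of 132 ± 15.1 (SD, n = 2) was 3.08 times the normal signal. Mutant 1 gave a log2 ratio of 1.04 and mutant 2 gave 1.22. Its mean signal lay below the filter, so it has no adjusted p in the main comparison, and with all probe sets tested limma gave an adjusted p of 0.437. Hspa1a and Hspa1b are near-identical copies and the suffix of 1427127_x_at marks probes that may bind other transcripts, so the 4 probe sets cannot be taken as separate measurements of 2 genes. Counted as 1 gene, the members at least 2-fold higher in both mutant arrays were 2, namely the HSP70 pair and Junb. By that count 7 of 9 members read higher in both mutant arrays, against 36.0% of all genes. The members' median log2 ratio was then 0.68.

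Hspb1 also read higher in both mutant pools, but its size rested on mutant 2. Probe set 1422943_a_at had signals of 1960.4 and 3647 on mutant arrays 1 and 2, against 1437 on the normal array. Probe set 1425964_x_at read 1029 and 2109.7 on the mutant arrays, against 732 on the normal array. Both probe sets showed the same order of arrays, with mutant 2 highest and the normal array lowest. The suffix of 1425964_x_at marks probes that may bind other transcripts, so its order is not separate support. At the brighter one mutant 1 gave a log2 ratio of 0.44 and mutant 2 gave 1.33, with a mean of 0.88 (SE 0.38, limma adjusted p = 0.396). The mutant arrays differed from each other by 0.88 and 1.01 on the log2 scale at these probe sets. Over all kept probe sets the median size of that difference was 0.24 and its 90th percentile was 0.72. In Hspa1b mutant 1 was the higher array, by 0.43 at its brightest probe set, and in Hspa1a mutant 2 was, by 0.19. The heat shock members therefore did not share the order of the mutant pools. Only the Hspb1 differences were above that 90th percentile, so the order in Hspa1a and Hspa1b lay within the usual spread between the mutant arrays.

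**Figure D2:**
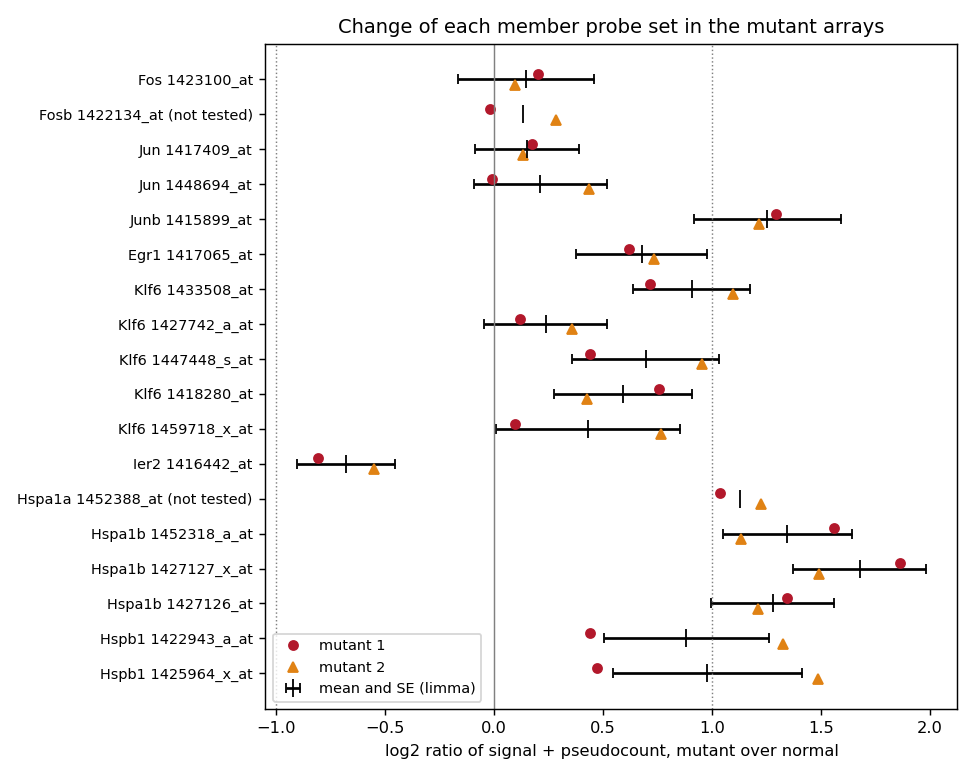
Log2 ratio of signal + 31.92 to the normal array for each probe set, with mutant 1 as circles, mutant 2 as triangles and their mean as a bar with the limma SE; dotted lines mark a 2-fold difference. Probe sets of Hspa1a, Hspa1b and Junb lie right of the upper dotted line in both mutant arrays, the Hspb1 arrays lie on either side of it, and Ier2 is the one gene left of 0 in both.

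Junb, an AP-1 subunit that forms dimers with Fos proteins, was the immediate early member with the largest difference. Its probe set read 174 and 164 on mutant arrays 1 and 2, against 52.3 on the normal array. The mutant arrays lay close together and did not overlap the normal one. Their mean was 169 ± 7.60 (SD, n = 2), 3.23 times the normal signal, and the log2 ratio was 1.25 (SE 0.34, limma adjusted p = 0.224). Junb was kept only because its mutant signals raised its average over the filter, so it had to differ to be tested, and with all probe sets tested limma gave an adjusted p of 0.397. The normal signal was near the added constant of 31.92, so the size of this log2 ratio depends on it and ranged from 1.00 to 1.44 over the alternatives tried. Jun, the AP-1 subunit whose promoter window held a heat shock pair, read 724 and 703 on the mutant arrays, against 639 on the normal array, at its brighter probe set. Its log2 ratio there was 0.15 (SE 0.24, limma adjusted p = 0.831). At the dimmer Jun probe set the signals were 407 and 566 on the mutant arrays, against 410.3 on the normal array, which lay between them.

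The Fos genes, which encode the partners of Jun proteins, showed small differences. Fos read 189 and 174 on the mutant arrays, against 161 on the normal array, a log2 ratio of 0.15 (SE 0.31, limma adjusted p = 0.876). Fosb read 71.9 and 96.1 on the mutant arrays, against 73.3 on the normal array. The normal Fosb signal lay between the mutant signals, and the filter removed this dim probe set. The SEs of Fos and Jun leave room for differences in either direction, and a p above the threshold does not show that the pools were alike.

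Egr1, an early growth response factor induced by many growth signals, read 235 and 256 on the mutant arrays, against 141 on the normal array. The mutant arrays were close to each other and both above the normal one, with a mean of 245 ± 15.3 (SD, n = 2) and a log2 ratio of 0.68 (SE 0.30, limma adjusted p = 0.413). Klf6, a Krüppel-like factor, was measured by 5 probe sets, all of which read higher in both mutant arrays. The brightest read 975 and 1278 on the mutant arrays, against 581 on the normal array, a log2 ratio of 0.91 (SE 0.27, limma adjusted p = 0.251). The other 4 probe sets ranged from 0.24 to 0.70, and the mean of all 5 gave 0.57. The probe sets therefore had a common direction and differed in size, and the dimmest, 1459718_x_at, has the suffix for probes that may bind other transcripts. Mutant 2 read higher than mutant 1 in 4 of the 5, and 1418280_at had the opposite order with 306 in mutant 1 and 237 in mutant 2.

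Ier2, which encodes a nuclear protein induced early by growth factors, was the exception in direction. It read 1219.6 and 1464 on mutant arrays 1 and 2, against 2159 on the normal array. Both mutant arrays lay below the normal one, with a mean of 1342 ± 173 (SD, n = 2) that was 0.622 of the normal signal. The log2 ratio was -0.68 (SE 0.23, limma adjusted p = 0.299), with -0.81 in mutant 1 and -0.55 in mutant 2.

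**Figure D3:**
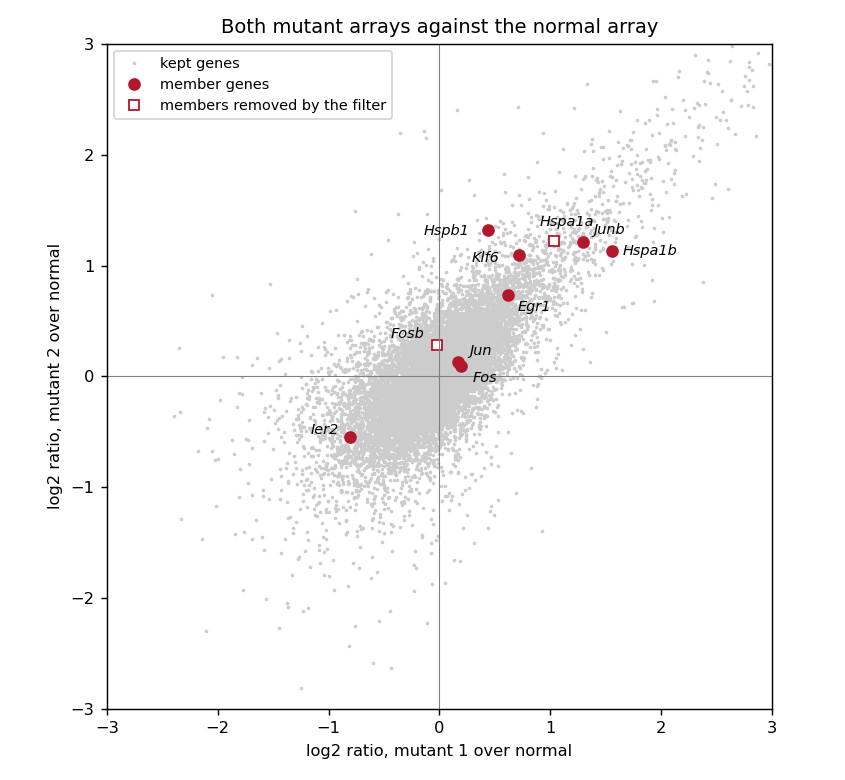
Log2 ratio to the normal array in mutant 1 (horizontal axis) and mutant 2 (vertical axis) for the 12913 genes kept by the filter (grey points, brightest probe set) and for the 10 members (red; open squares where removed by the filter). The axes stop at 3 on the log2 scale and leave out 49 genes; both ratios share the normal array, and 8 members lie in the upper right, Ier2 lies in the lower left and Fosb lies beside the vertical line at 0.

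Other genes of the same responses had median log2 ratios near 0. Of 30 other immediate early genes, 14 read higher in both mutant arrays, 9 lower in both and 7 differed in sign, and 27 were kept by the filter. Limma called 0 of the 27 and gave 1 an unadjusted p under 0.05. The kept genes had a median of 0.05 (mutant 1 gave 0.22, mutant 2 gave 0.30, and refitting without mutant 2 gave 0.25), against -0.02 over all kept genes. Ier3, a survival factor induced by stress, read 367 and 226 on the mutant arrays, against 121 on the normal array (log2 ratio 1.06, limma adjusted p = 0.322). Dusp1, a phosphatase that switches off stress kinases, had a log2 ratio of 0.76, and the AP-1 gene Fosl2 had 0.56. On the lower side, Egr2, which patterns the hindbrain, read 181 and 126 on the mutant arrays, against 277 on the normal array (log2 ratio -0.75, limma adjusted p = 0.426). Dusp5, a dual specificity phosphatase, had -1.43, with -2.18 in mutant 1 and -0.68 in mutant 2, and Klf2, a flow-responsive endothelial factor, had -0.72.

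Of 31 other heat shock genes 29 had a named probe set, and Hsf1 and Hsp90ab1 were not analysed here. Of these 29, 11 read higher in both mutant arrays, 5 lower in both and 13 differed in sign. Limma called 0 of the 27 kept and gave 2 an unadjusted p under 0.05. The median log2 ratio of the 27 was -0.02. Its sign turned under median centring (0.06), quantile normalization (0.03) and cyclic loess (0.04), and without mutant 1 (0.05) or mutant 2 (0.08). Over all kept genes the median was -0.02, and in the same order it became 0.06, 0.00018, 0.02, 0.02 and -0.02. The turn under median centring was thus a shift of the whole array. Hspa14, a ribosome-associated HSP70 relative, read 3497 and 3597 on the mutant arrays, against 2135 on the normal array (log2 ratio 0.72, SE 0.18, limma adjusted p = 0.203). Hspa4l, an HSP110 relative, had 0.83, and the HSP40 cochaperone Dnajb4 had 0.45. Hspb7, a small heat shock protein of heart muscle, read 185 and 187 on the mutant arrays, against 332 on the normal array (log2 ratio -0.74, limma adjusted p = 0.367). Chordc1, an HSP90 cochaperone, had -0.28, and the small heat shock gene Hspb8 had -0.22.

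Of 12 upstream kinases and transcription factors analysed, 7 read higher and 2 lower in both mutant arrays, limma called 0 and gave 2 an unadjusted p under 0.05, and the median log2 ratio was 0.09. That median was 0.12 without mutant 1 and 0.05 without mutant 2, and it ranged from 0.01 to 0.16 over the alternatives. Creb1, which binds cyclic AMP response elements, read 1978 and 2079 on the mutant arrays, against 2940.0 on the normal array (log2 ratio -0.53, limma adjusted p = 0.333). The kinase gene Map2k1 had 0.45. The stress kinase gene Mapk14 had 0.31, the ternary complex factor Elk4 had 0.48 and the serum response cofactor Mrtfa had -0.12.

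**Figure D4:**
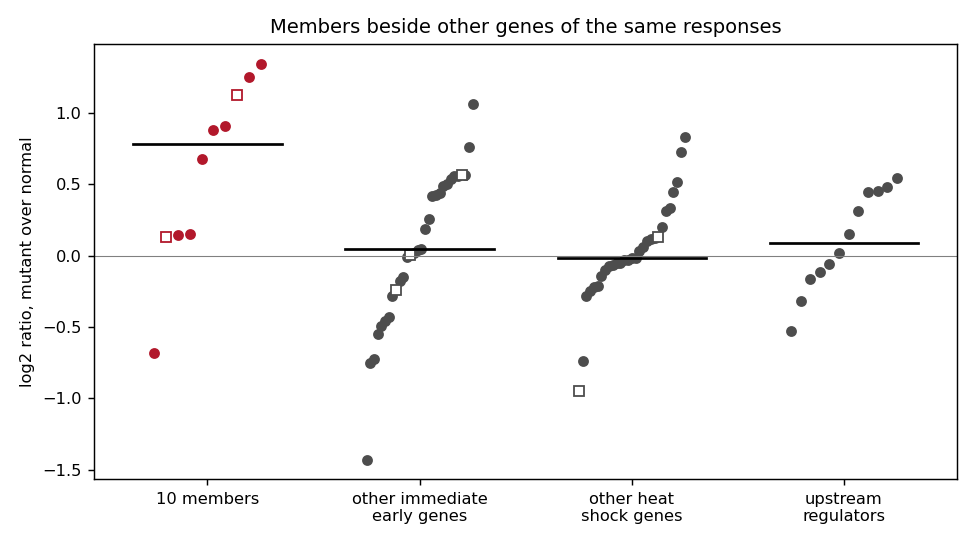
Log2 ratio, mutant over normal, of each gene (brightest probe set) for the 10 members, other immediate early genes, other heat shock genes and upstream regulators, ordered by value within each list. Filled circles were kept by the filter, open squares were not, and black lines are medians of kept genes, which are 0.78 for the members and 0.05, -0.02 and 0.09 for the other lists.

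The arrays differed in tissue markers and in an RNA control beside the members. All 9 yolk sac endoderm markers measured were called higher by limma (summed signal 93482 and 100160 on the mutant arrays, against 17693 on the normal array). All 8 embryonic erythroid markers read higher (68509 and 69570 on the mutant arrays, against 33965 on the normal array), with 2 called. All 9 markers of the embryo proper read lower (9402 and 12269 on the mutant arrays, against 20671 on the normal array), with 0 called by limma and 8 at an unadjusted p under 0.05. Of 8 decidua markers 5 read lower in both mutant arrays, with 1, Prl8a2, called lower, and 2 read higher in both, Wnt4 (log2 ratio 0.40) and Lum, at 749 and 2530 on the mutant arrays, against 444 on the normal array (summed signal 1996 and 4101 on the mutant arrays, against 3484 on the normal array). Of 7 blood leukocyte markers 3 were kept, and the 7 summed to 699 and 927 on the mutant arrays, against 832 on the normal array. No probe set of any kind had a signal of 0 on any array, so a signal above 0 does not show that a marker was detected. The Actb control probes gave 3' over 5' signal ratios of 1.24 and 1.43 on the mutant arrays, against 1.63 on the normal array, and the Gapdh probes gave 0.859 and 1.10 on the mutant arrays, against 0.930 on the normal array. The part of tissue makeup and RNA quality in the members' values was not tested. The labels do not say how long dissection took or record a scan batch. Dnmt3l itself read 183 and 14.3 on the mutant arrays, against 12.2 on the normal array, was removed by the filter and did not check the labels.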

How the data were processed

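Trizol RNA was turned into biotin-labelled cRNA for Affymetrix arrays, per the labels' protocols. The deposited table gives 1 linear intensity for each probe set on each array. GCOS and MAS5 are the tools that appear in the submitters' processing notes. The trimmed mean, leaving out 2% at each end, was 500 on every array. Detection calls were not used here, and the number of arrays limits the precision.

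Of 45101 probe sets, 64 controls were left out. Of the rest, 34945 had 1 gene symbol in the platform annotation, 932 had several and 9160 were not listed. The pseudocount was 31.92, the median of the arrays' 20th percentiles. Group means of log2(signal + 31.92) were averaged per probe set, and the 27022 probe sets at or above the 40th percentile were kept. The test was limma 3.58.1 (R 4.3.3) on all 3 arrays with a variance trend, two-sided, with Benjamini-Hochberg adjustment and a threshold of 0.05. Its 1 residual degree of freedom came from the mutant arrays, and the lone normal array was assumed to vary as they do. The fit's code was tested on simulated data. Members and lists were chosen with earlier results of these data known. Every member was named. Each other list of these responses gave up to 3 genes on either side with the largest difference in the less changed mutant array, plus any called.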

Additional observations from a re-analysis of the deposited data

How the results depend on the processing

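The 11 main alternatives changed the pseudocount, filter, scaling, variance trend, probe set rule or mutant array, and 2 more (Hspa1a and Hspa1b as 1 gene, and all 10 genes kept or not) were chosen after seeing the data. Limma called 0 member probe sets under every alternative with a test. Without the filter or without the variance trend it called 0 of all probe sets too. At an unadjusted p under 0.05 limma gave 5 to 9 member probe sets. The 5 came with the stricter filter (of all 18015 probe sets, 1424 higher and 1295 lower). The 9 came with median centring (of all 27022, 2185 higher and 1457 lower). Each of the 8 members kept by the filter held the sign of its log2 ratio wherever it had a value. Fosb and Hspa1a had values in only 2 alternatives, which leave the ratio unchanged, so their sign was not tried. By array, Fosb gave -0.02 in mutant 1 and 0.28 in mutant 2. Counts over the 8 kept members were 7 higher in both mutant arrays, 1 lower in both and 2 at least 2-fold higher in both. Over all 12913 kept genes the same counts were 4711, 5050 and 418. Junb, one of the 7 and of the 2, was kept only through its mutant signals, and over all 10 members these counts were 8, 1 and 3. Shares over all genes were not computed for the alternatives that follow, so their counts are a description. The stricter filter kept 5 members, of which 4 were higher and 1 was at least 2-fold higher. A pseudocount of 63.8 left 1 at least 2-fold higher. Averaging the kept probe sets of each gene gave a members' median of 0.62, against 0.78 in the main comparison. Without mutant replicate 1 or 2, 7 were higher, 4 (with Klf6 and Hspb1 added) and 2 were at least 2-fold higher, and the members' median was 0.91 and 0.53. Log2 ratios ranged from 1.13 to 1.56 for Hspa1b, 0.44 to 1.33 for Hspb1, 0.57 to 1.10 for Klf6, 0.59 to 0.76 for Egr1 and -0.81 to -0.55 for Ier2.

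Over the whole array limma called 148 probe sets higher and 8 lower. Median centring gave 263 and 24. Limma gave 0 and 0 without the filter (2423 and 2451 at an unadjusted p under 0.05) and 0 and 0 without the variance trend (1641 and 1814). The cause was not tested. No paired analysis was possible because the normal group has 1 array and no replicate number to pair. Junb and Hspa1a lay near the pseudocount on the normal array, which limits how well their fold is known.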
